A study of Mus musculus with 40 samples.

Results

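The naive pluripotency factors described here were 10 transcription regulators of mouse embryonic stem cells: Nanog, Klf2, Klf4, Klf5, Esrrb, Nr0b1, Tfcp2l1, Tbx3, Zfp42 and Prdm14. They were taken by gene symbol from each of 3 RNA-seq count tables, of 55276 genes (genotype table), 55291 genes (Pramel7 table) and 55276 genes (time course). All 10 were found, and all 10 passed the filter on low counts, in every table. The study asked how loss of the corepressors Ctbp1 and Ctbp2 acts on the 2-cell-like state of embryonic stem cells, and how far this depends on Dux. All 34 RNA libraries came from E14tg2a, a male mouse embryonic stem cell line, grown in GMEM with fetal bovine serum (FBS) and leukaemia inhibitory factor (LIF). The labels name no inhibitors of MEK or GSK3, and do not say whether a line was a single clone or how it was made. An effect of the gene named therefore cannot be told apart from other differences between lines.

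The genotype table held 2 libraries each of wild type (WT), CtbpDKO (the label of the Ctbp double knockout), DuxKO, Dppa2KO, Ctbp-Dux TKO (triple knockout) and a line called DKO-Dppa2 here. For that last line the sample titles and genotype labels read Dppa2_DuxTKO and the column descriptions DKO_Dppa2_KO. The description was used, and its Ctbp1 counts were 4 and 0. Duxf3 (Dux) was at 0 counts in both of its libraries, as in both of Dppa2KO, so whether Dux was lost too could not be checked. The Pramel7 table held 4 WT libraries (replicates 3 to 6) and 2 each of DuxKO (replicates 3 and 4), P7OE, DuxKO-P7OE and P7KO, where P7 stands for Pramel7, OE for overexpression and KO for knockout. The time course held 2 libraries each of CtbpDKO cells labelled Dox at days 0, 3, 9, 12 and 18. The labels do not say when Dox was present, and the column names carry iCt2. The labels do not say whether replicates were separate cultures, so the tests below measure the spread between libraries, which may be technical.

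Naive pluripotency is the state of the preimplantation epiblast, which mouse embryonic stem cells keep in culture through a network of transcription factors that support each other's expression. LIF acts through Stat3 on Klf4 and Tfcp2l1, while Wnt signalling relieves repression by Tcf7l1 of targets such as Esrrb. Nanog, Esrrb, Klf2, Klf4, Klf5, Tfcp2l1 and Tbx3 sustain self-renewal, Prdm14 restrains FGF signalling and the de novo DNA methyltransferases, Nr0b1 (Dax1) is a nuclear receptor that acts mostly as a corepressor, and Zfp42 (Rex1) is the classical marker of the state. Cells that leave it lower these factors and raise formative genes such as Otx2, Fgf5 and Dnmt3b. CtBP proteins are corepressors without DNA binding of their own, recruited by zinc finger and other factors. Dux drives the 2-cell-like state, Dppa2 activates Dux, and PRAMEL7 is known to lower DNA methylation by targeting UHRF1.

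The members lie on 8 chromosomes in GRCm38 (mm10, the build of the submitters' processing notes), and all are protein coding. Nanog spans chr6:122707489-122714633, Klf2 chr8:72319062-72321654, Klf4 chr4:55527137-55532475 and Klf5 chr14:99298691-99313412. Esrrb spans chr12:86361117-86521628, Nr0b1 chrX:86191775-86195947, Tfcp2l1 chr1:118627923-118685168 and Tbx3 chr5:119670534-119684724. Zfp42 spans chr8:43295067-43307009 and Prdm14 chr1:13113428-13127163.

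RefSeq promoter sequences (GRCm38.p6) were matched for 7 of the 10 members, and the 250 bases before each start were searched on both strands. There were 9 entries, since Nanog and Esrrb had more than 1 start. A member was counted if any of its entries matched, while the shares over all promoters are per entry. For Nanog the distances are those of the window shown. CACCTG, an E-box read by Zeb-type zinc finger factors that are known to recruit CtBP, was present in 3 members, Nanog, Tfcp2l1 and Zfp42, and in 17.2% of 32851 promoters of the same length. The 3 sequences are shown because their genes went different ways on Ctbp loss: Nanog was not called, Tfcp2l1 was lower and Zfp42 higher. TTTGCAT, which is part of the octamer bound by Pou5f1, was found in Nanog, 75 bases before the start, and in Zfp42, 185 bases before it, and in 4.12% of all promoters. In Nanog the Sox motif ACAATG followed 67 bases before the start (10.7% of all promoters). The sequences read 5′ to 3′ on the gene's strand, with the E-box (CACCTG, or CAGGTG where it lies on the opposite strand) and TTTGCAT in capitals. The windows are chr6:122707239-122707488 (plus strand) for Nanog, chr1:118627695-118627944 (plus strand) for Tfcp2l1 and chr8:43307010-43307259 (minus strand) for Zfp42.
Nanog: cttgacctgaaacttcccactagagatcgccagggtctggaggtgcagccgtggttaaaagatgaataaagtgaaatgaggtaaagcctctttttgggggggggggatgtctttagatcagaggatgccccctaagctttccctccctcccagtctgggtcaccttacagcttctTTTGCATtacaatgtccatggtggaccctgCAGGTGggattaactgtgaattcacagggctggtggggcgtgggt
Tfcp2l1: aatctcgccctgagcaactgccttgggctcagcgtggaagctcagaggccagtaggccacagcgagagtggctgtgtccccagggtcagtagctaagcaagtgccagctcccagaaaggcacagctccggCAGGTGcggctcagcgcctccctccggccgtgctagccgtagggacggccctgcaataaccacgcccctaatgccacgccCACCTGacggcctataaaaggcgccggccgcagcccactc
Zfp42: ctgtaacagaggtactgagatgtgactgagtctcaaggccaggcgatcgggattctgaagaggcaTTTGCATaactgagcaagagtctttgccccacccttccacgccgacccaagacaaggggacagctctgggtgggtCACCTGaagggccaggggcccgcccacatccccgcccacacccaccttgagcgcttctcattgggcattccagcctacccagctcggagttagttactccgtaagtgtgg
The E-box lay 45 bases before the start of Nanog, 120 and 40 bases before that of Tfcp2l1 and 110 bases before that of Zfp42. CCACCC, a Klf motif, was present in 5 of the 7 members (28.1% of all promoters). In Nanog it lay only before the other start, not in the window shown. The Esrrb motif AAGGTCA (4.08%) and the Stat3 motif TTCCNGGAA (0.913%) were not found in these windows. A match describes the letters only.

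Libraries held between 10123058 and 36025046 counts, and the shallowest were DuxKO-P7OE. Levels are in CPM, counts scaled to library size with TMM factors, and they are not compared between genes. Ctbp1 was at or below 0.2 CPM in CtbpDKO, Ctbp-Dux TKO and DKO-Dppa2 against 64.1 and 68.8 CPM in WT. Ctbp2 was between 36.5 and 43.8 CPM there against 211 and 215. Dppa2 was 33.3 and 29.1 CPM in Dppa2KO against 57.3 and 60.9 in WT, so that its transcript remained. Duxf3 was at 1 and 0 counts in WT, so its level cannot check the DuxKO label. Pramel7 was 14 and 26.2 CPM in P7OE, 49.3 and 56.7 CPM in DuxKO-P7OE and at most 0.154 CPM in the WT of that table, which is too low to check P7KO. Core pluripotency genes (Pou5f1, Sox2, Sall4, Utf1, Lin28a, Trim28) summed to between 2476 and 3588 CPM in every library, and mesoderm markers to at most 31.9 CPM.

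The 4 WT libraries of the Pramel7 table stood apart in pairs. In 9 of the 10 members replicates 5 and 6 were both higher than replicates 3 and 4, which held for 28% of the 20161 tested genes, while 0 members were lower (26.5% of genes). Esrrb was 221 and 212 CPM in replicates 3 and 4 and 292 and 269 CPM in replicates 5 and 6. Tbx3 was 31.5 and 31.1 CPM against 49.4 and 50.1 CPM, a ratio of the means of 1.59. Zfp42 was 163 and 163 CPM against 254 and 237 CPM. The exception was Prdm14, at 6.55 and 6.19 CPM against 9.77 and 6.51 CPM. The summed level of the formative genes went the other way, at 980 and 977 CPM in replicates 3 and 4 and 772 and 768 CPM in replicates 5 and 6. A few abundant genes can set such a sum, and the genes were not counted singly between the pairs. The members called against these WT libraries are therefore given with all 4 and with each pair, as are other members whose call changed with the pair. The counts over marker lists use all 4. With so few libraries many genes lie apart, as the shares of 28% and 26.5% between these WT pairs show. A lack of overlap below is thus given as a description, without the share of all genes in that comparison. The replicates share numbers 3 and 4 with DuxKO, and nothing in the labels says what set the pairs apart. In the series' sample list replicates 3 and 4 stand directly before DuxKO, P7OE and DuxKO-P7OE. Replicates 5 and 6 stand directly before P7KO. Whether neighbours in that list were grown or sequenced together is not stated.

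The naive factors went different ways in CtbpDKO. In CtbpDKO against WT, Tbx3 and Zfp42 rose, Klf2, Esrrb, Nr0b1, Tfcp2l1 and Prdm14 fell, and Nanog, Klf4 and Klf5 did not pass the test. Thus 2 of the 10 members were called higher and 5 lower at an adjusted p under 0.05, against 14.7% and 11.4% of the 21193 genes tested. The members' median log2 fold change was -0.20, beside 0.01 over all genes. In these bulk libraries fewer cells expressing a gene and less RNA per cell cannot be told apart.

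Tbx3, a T-box factor that supports self-renewal, measured 69 and 66.4 CPM in WT and 220 and 223 CPM in CtbpDKO. The knockout libraries were both far above WT, with a log2 fold change of 1.71 (SE 0.09, edgeR adjusted p 2.11e-08), or 3.27-fold. Here and below the p is that of edgeR's quasi-likelihood test, adjusted by Benjamini-Hochberg over all genes. No other member reached a 2-fold difference in either direction in this comparison. Zfp42 was 327 and 326 CPM in WT and 405 and 395 CPM in CtbpDKO, higher by 0.29 (SE 0.10, edgeR adjusted p 0.0491). This call was lost without any 1 of the 4 libraries, with structural RNA genes removed and under the replicate block, with adjusted p-values up to 0.214.

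Nr0b1 fell most on the log2 scale, from 183 and 180 CPM in WT to 107 in both CtbpDKO libraries, by 0.76 (SE 0.08, edgeR adjusted p 1.2e-05). The groups were well separated. Prdm14 was 8.25 and 9.39 CPM in WT and 5.52 and 5.34 CPM in CtbpDKO, a fold change of -0.70 (SE 0.17, edgeR adjusted p 0.00902). Without WT replicate 2 or CtbpDKO replicate 2 it was no longer called (adjusted p up to 0.0701). Tfcp2l1, a target of LIF and Stat3, went from 252 and 266 CPM to 176 and 183 CPM (-0.53, SE 0.10, edgeR adjusted p 0.00127).

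Esrrb, an orphan nuclear receptor of the network, went from 575 and 620 CPM to 426 and 434 CPM (-0.47, SE 0.10, edgeR adjusted p 0.00233). Klf2 went from 81 and 84.8 CPM to 62.7 and 64.8 CPM (-0.38, SE 0.08, edgeR adjusted p 0.00371). Both were lower in each knockout library than in each WT library. Nanog, the homeodomain factor of the network, was 154 and 153 CPM in WT and 148 and 157 CPM in CtbpDKO, and the groups overlapped. Klf4 overlapped too, at 46.1 and 53.8 CPM against 50.7 and 52.1 CPM. Klf5 was 143 and 153 CPM in WT and 169 and 164 CPM in CtbpDKO (0.17, SE 0.09, edgeR adjusted p 0.192).

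**Figure D1:**
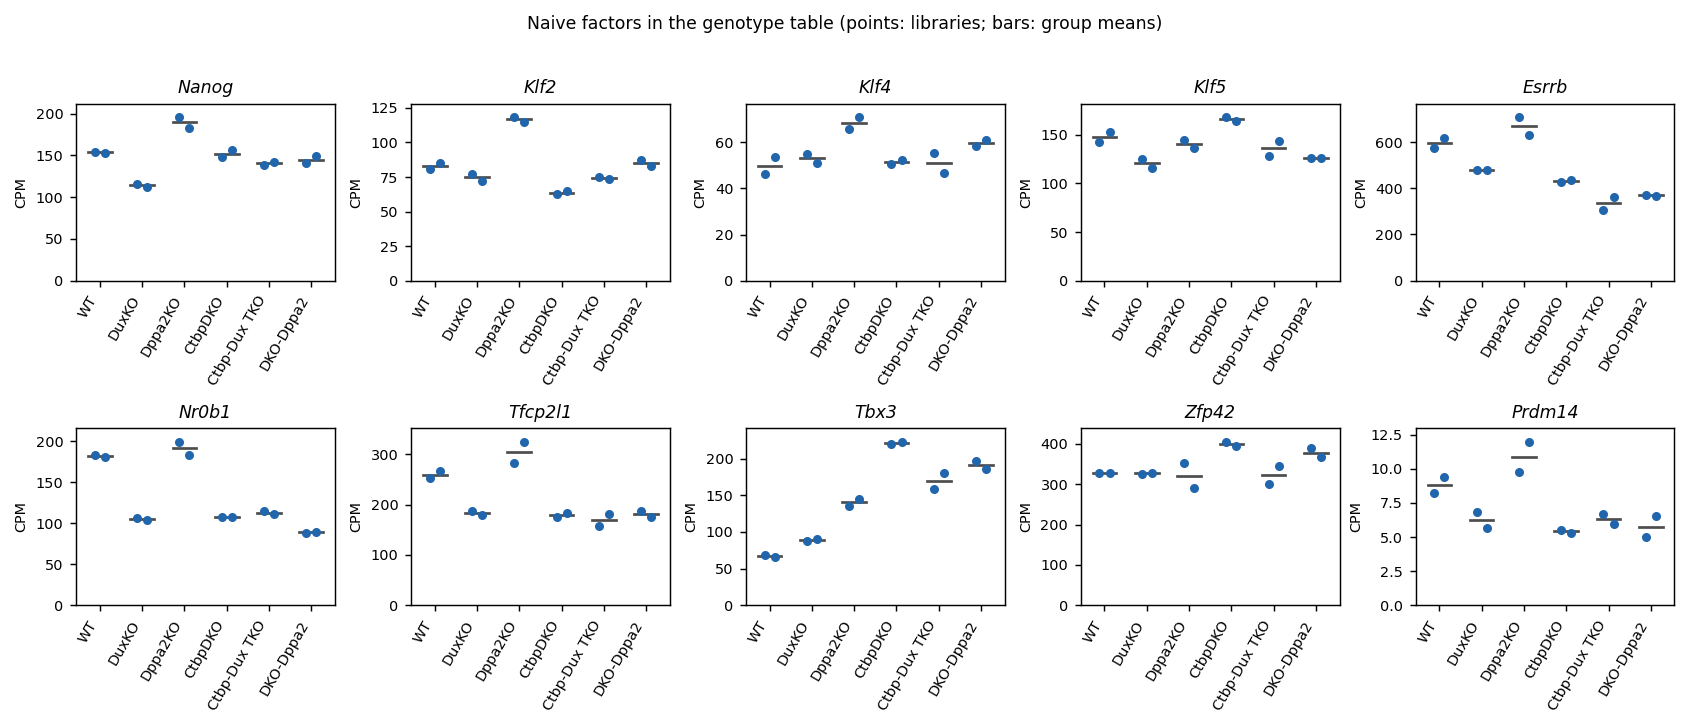
Level of each naive factor (vertical axis, CPM from 0) in the 6 lines of the genotype table (horizontal axis); points are the 2 libraries of a line and short horizontal bars their mean. Tbx3 is lowest in WT, at 69 and 66.4 CPM, and highest in CtbpDKO, at 220 and 223 CPM, while Nr0b1 is near 107 CPM in CtbpDKO and DuxKO against 183 and 180 CPM in WT.

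The pathways around the naive factors were counted in the same way in CtbpDKO. Of 8 LIF and Stat3 genes, 0 were called higher and 4 lower, led by the shared cytokine receptor Il6st (-1.71), Stat3 itself (-1.24) and the LIF receptor Lifr (-0.57). Of 8 FGF and ERK genes 5 were called higher and 2 lower, with the feedback inhibitor Spry4 at 1.03, Etv4 at 1.02 and the receptor Fgfr1 at 0.79. Of 6 Wnt and Tcf7l1 genes 1 was called higher (Axin2, 1.31) and 1 lower (Lef1, -2.12). Core pluripotency genes had 2 of 6 called higher and 2 lower, among them Utf1 (0.40), Sox2 (-0.40) and Pou5f1 (-0.36).

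Among 10 further naive genes 2 were called higher and 3 lower, with Gdf3 at -0.94, Fbxo15 at 0.84 and Zfp57 at -0.50. Of 10 formative and primed genes 3 were called higher and 5 lower, led by the DNA methyltransferases Dnmt3b (1.67) and Dnmt3a (1.07) and by Zic2 (-1.23). All 8 tested 2-cell genes of a list of 10 were called higher. Trophoblast markers also moved with Ctbp loss: 7 of 9 tested were called higher and 0 lower, led by Hand1 (4.32), Krt7 (4.11) and Krt8 (2.66), and their summed level was 203 and 194 CPM against 44.2 and 41.7 CPM in WT. Krt8 and Krt18 made up most of it, at mean levels of 113 and 29.1 CPM in CtbpDKO, while Elf5 was at 0 counts in both WT libraries. Primitive endoderm markers had 5 of 10 called higher, with sums of 148 and 143 CPM against 159 and 132 CPM. Neural markers had 2 of 6 tested called in each direction, and mesoderm markers 0 of 5 in either. The part of other cell types in the members' values was not tested.

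DuxKO had more members called lower than higher in the genotype table. In DuxKO against WT, 1 member was called higher (7.94% of all genes) and 5 lower (9.56%), with a median of -0.31 beside -0.01 over all genes. Nr0b1 measured 107 and 103 CPM in DuxKO against 183 and 180 CPM in WT, a log2 fold change of -0.79 (SE 0.08, edgeR adjusted p 2.47e-05). Nanog was 116 and 113 CPM against 154 and 153 CPM (-0.43, SE 0.08, edgeR adjusted p 0.00296). In both genes the DuxKO libraries lay below every WT library.

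Tfcp2l1 was 188 and 180 CPM in DuxKO against 252 and 266 CPM (-0.50, SE 0.10, edgeR adjusted p 0.00371). Tbx3 was the member that rose, at 88 and 89.8 CPM against 69 and 66.4 CPM (0.39, SE 0.09, edgeR adjusted p 0.00747). It lost its call without WT replicate 2 or DuxKO replicate 2 (adjusted p up to 0.067). Klf5 (126 and 116 against 143 and 153 CPM) and Esrrb (479 and 480 against 575 and 620 CPM) were called lower, at -0.30 (SE 0.09) and -0.32 (SE 0.10). Both lost the call without any 1 of the 4 libraries and under the replicate block, and Klf5 also without the low-count filter, with edgeR adjusted p-values up to 0.235 and 0.225, and without WT replicate 2 or DuxKO replicate 2 only 3 members in all were called.

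Prdm14 was 6.87 and 5.69 CPM in DuxKO, below both WT libraries, but did not pass the test (-0.49, SE 0.17, edgeR adjusted p 0.0695). Klf2, Klf4 and Zfp42 had fold changes of -0.15, 0.09 and 0.00. Zfp42 was 325 and 328 CPM in DuxKO and 327 and 326 CPM in WT. Of the further naive genes 1 of 10 was called higher (Dppa3, 1.61) and 7 lower, with Dppa5a at -0.86 and Zfp57 at -0.81. Of the LIF and Stat3 genes 0 of 8 were called higher and 3 lower, Stat3 at -0.90, Il6st at -0.64 and Pim3 at -0.42. Primitive endoderm markers summed to 78.4 and 79.8 CPM in DuxKO against 159 and 132 CPM in WT, with 0 of 10 called higher and 9 lower; their part in the members' values was not tested.

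Dppa2KO had members called higher than WT and none called lower. In Dppa2KO against WT, 4 members were called higher (7.67% of all genes) and 0 lower (8.69%), the lower count being 0 also by DESeq2, and the median was 0.26 beside -0.02 over all genes. Tbx3 was 136 and 144 CPM against 69 and 66.4 CPM in WT, a fold change of 1.05 (SE 0.09, edgeR adjusted p 8.68e-06). Klf2 was 119 and 115 CPM against 81 and 84.8 CPM (0.49, SE 0.08, edgeR adjusted p 0.00142). In each of these the Dppa2KO libraries lay above both WT libraries.

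Klf4 was 65.9 and 71.1 CPM in Dppa2KO against 46.1 and 53.8 CPM in WT (0.46, SE 0.11, edgeR adjusted p 0.0111), a call lost without WT replicate 1 or Dppa2KO replicate 2 (adjusted p up to 0.12). Nanog was 196 and 183 CPM against 154 and 153 CPM, the highest of any line in this table. Its call (0.30, SE 0.08, edgeR adjusted p 0.022) was lost when the 2 lines were fitted alone and without WT replicate 1, WT replicate 2 or Dppa2KO replicate 1, with adjusted p-values up to 0.134. Without WT replicate 1, 2 members in all were called. Esrrb (710 and 632 CPM), Nr0b1 (199 and 183 CPM), Tfcp2l1 (281 and 325 CPM) and Prdm14 (9.74 and 12 CPM) lay above both WT libraries but did not pass the test, with fold changes of 0.17, 0.07, 0.23 and 0.30. The share of all genes above both WT libraries was not counted. Klf5 and Zfp42 overlapped WT (-0.08 and -0.03).

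Around them, 2 core genes of 6 were called higher and 1 lower in Dppa2KO, Pou5f1 at 0.46, Trim28 at 0.27 and Lin28a at -0.43. Of the LIF and Stat3 genes 1 of 8 was called higher and 3 lower, Stat3 and Lifr both at -0.73 and Il6st at -0.51. Of the formative genes 2 of 10 were called higher and 5 lower, led by Sox3 (-1.07), Otx2 (-1.04) and Pou3f1 (-0.88). Primitive endoderm markers summed to 88.1 and 113 CPM against 159 and 132 CPM in WT, and Amn was at 0 counts in 1 Dppa2KO library; their part in the members' values was not tested.

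Tbx3 and Esrrb were lower in Ctbp-Dux TKO than in CtbpDKO. Ctbp-Dux TKO against CtbpDKO had 0 members called higher (3.6% of all genes) and 2 lower (4.54%), with a median of -0.10 beside 0.00 over all genes. The higher count was 0 also by DESeq2, and 5 members had an unadjusted p under 0.05 in either direction. Tbx3 was 158 and 180 CPM against 220 and 223 CPM (-0.39, SE 0.09, edgeR adjusted p 0.0153). Esrrb was 308 and 361 CPM against 426 and 434 CPM (-0.36, SE 0.10, edgeR adjusted p 0.0347). Both genes were lower in each triple knockout library than in each CtbpDKO library. Both calls were lost, leaving 0, when the 2 lines were fitted alone and without CtbpDKO replicate 1, CtbpDKO replicate 2 or Ctbp-Dux TKO replicate 1, with adjusted p-values up to 0.144 and 0.261. Under the replicate block Tbx3 alone was called.

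Nanog was 138 and 143 CPM in Ctbp-Dux TKO, Klf2 74.9 and 73.4 CPM, Klf4 55.5 and 46.9 CPM and Klf5 128 and 144 CPM, with fold changes against CtbpDKO of -0.12, 0.22, -0.01 and -0.29. Nr0b1 was 115 and 111 CPM, Tfcp2l1 157 and 181 CPM, Zfp42 301 and 345 CPM and Prdm14 6.68 and 5.98 CPM, with fold changes of 0.08, -0.09, -0.31 and 0.22. Primitive endoderm markers rose in the same comparison, with 8 of 10 called higher and 0 lower. Cubn was at 2.90, Dab2 at 2.16 and Sox17 at 2.00, and the list summed to 609 and 568 CPM against 148 and 143 CPM. Formative genes had 5 of 10 called higher and 1 lower, with Fgf5 at 2.36, Otx2 at 1.55 and Pou3f1 at 0.95. Whether these had a part in the fall of Tbx3 and Esrrb was not tested.

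Ctbp loss was also compared on the DuxKO background. Ctbp-Dux TKO against DuxKO had 2 members called higher (21.4% of all genes) and 1 lower (19.6%), which is no higher share than that of all genes. Tbx3 was 158 and 180 CPM against 88 and 89.8 CPM (0.93, SE 0.09, edgeR adjusted p 2.56e-06). Nanog was 138 and 143 CPM against 116 and 113 CPM (0.30, SE 0.08, edgeR adjusted p 0.0102), a call lost without DuxKO replicate 1, DuxKO replicate 2 or Ctbp-Dux TKO replicate 2 (adjusted p up to 0.0982). Esrrb was 308 and 361 CPM against 479 and 480 CPM (-0.52, SE 0.10, edgeR adjusted p 0.000749). The triple knockout libraries did not overlap DuxKO in these 3 genes. Primitive endoderm markers had 10 of 10 called higher, with sums of 609 and 568 CPM against 78.4 and 79.8 CPM. Trophoblast markers had 7 of 9 called higher and 1 lower, with sums of 189 and 187 CPM against 63 and 57.3 CPM. Their part in the members' values was not tested.

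The difference between the effect of Ctbp loss without Dux and with Dux was tested as an interaction, in which 2 members were called higher (9.82% of all genes) and 1 lower (9.64%). Nr0b1 fell by 0.76 on Ctbp loss in Dux-intact cells and was at 0.11 in DuxKO cells, an interaction of 0.87 (SE 0.11, edgeR adjusted p 0.000202). Its mean was 182 CPM in WT, 105 CPM in DuxKO, 107 CPM in CtbpDKO and 113 CPM in Ctbp-Dux TKO. DuxKO cells were thus already near the CtbpDKO level of Nr0b1 before Ctbp loss. Tbx3 rose by 1.71 and 0.93, an interaction of -0.78 (SE 0.12, edgeR adjusted p 0.000802). For Klf2 the effects were -0.38 and -0.01, with an interaction of 0.37 (SE 0.12, edgeR adjusted p 0.0406). That last call was lost without any 1 of the 8 libraries, under the replicate block and without the low-count filter (adjusted p up to 0.155). Tfcp2l1 (0.41), Prdm14 (0.71) and Nanog (0.31) had interactions with edgeR adjusted p-values of 0.055, 0.0621 and 0.0747. DESeq2 called Nanog and Tfcp2l1 too, and a fit of these 4 lines alone called Tfcp2l1 and Prdm14, so that both gave 5 members.

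Klf2 was higher in DKO-Dppa2 than in CtbpDKO. DKO-Dppa2 against CtbpDKO had 1 member called higher (5.75% of all genes) and 2 lower (9.67%), with a median of -0.08 beside -0.03 over all genes. Klf2 was 87.3 and 83.1 CPM against 62.7 and 64.8 CPM (0.42, SE 0.08, edgeR adjusted p 0.00461). Klf5 was 126 in both libraries against 169 and 164 CPM (-0.40, SE 0.09, edgeR adjusted p 0.0091). The groups were apart in both genes. Nr0b1 was 88.4 and 90 CPM against 107 and 107 CPM (-0.27, SE 0.08, edgeR adjusted p 0.0401). It lost its call without any 1 of the 4 libraries and under 4 other settings (adjusted p up to 0.173), and without CtbpDKO replicate 1 or DKO-Dppa2 replicate 2 Klf5 was lost too (adjusted p up to 0.0693), leaving 1 member.

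The remaining members of DKO-Dppa2 did not pass the test against CtbpDKO. Tbx3 was 197 and 186 CPM (-0.21, SE 0.09, edgeR adjusted p 0.121) and Esrrb 370 and 368 CPM (-0.22). Nanog was 141 and 149 CPM, Tfcp2l1 186 and 175 CPM, Zfp42 388 and 367 CPM, Klf4 58.5 and 61 CPM and Prdm14 5.01 and 6.53 CPM, with fold changes between -0.08 and 0.22. The primitive endoderm markers summed to 38.4 and 35.5 CPM, against 148 and 143 CPM in CtbpDKO, and 0 of 10 were called higher and 8 lower. Their part in the members' values was not tested.

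Against Dppa2KO, DKO-Dppa2 gave the difference with Ctbp loss on the Dppa2KO background, with 1 member called higher (15.2% of all genes) and 6 lower (15.2%) and a median of -0.42 beside 0.01. Nr0b1 was 88.4 and 90 CPM against 199 and 183 CPM (-1.10, SE 0.08, edgeR adjusted p 4.45e-07). Prdm14 was 5.01 and 6.53 CPM against 9.74 and 12 CPM (-0.91, SE 0.18, edgeR adjusted p 0.00158). Esrrb was 370 and 368 CPM against 710 and 632 CPM (-0.86, SE 0.10, edgeR adjusted p 1.99e-05). Each of the 3 was lower in both DKO-Dppa2 libraries than in any Dppa2KO library.

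Tfcp2l1 (-0.75), Klf2 (-0.46) and Nanog (-0.39) were also called lower, with edgeR adjusted p-values of 8.3e-05, 0.000917 and 0.00264. Tbx3 rose, from 136 and 144 CPM to 197 and 186 CPM (0.45, SE 0.09, edgeR adjusted p 0.0015). In the same comparison trophoblast markers had 6 of 9 called higher and 0 lower, with sums of 174 and 181 CPM against 33.4 and 28.8 CPM. Primitive endoderm markers had 2 of 10 called higher and 6 lower, with sums of 38.4 and 35.5 CPM against 88.1 and 113 CPM. Their part in the members' values was not tested. In the interaction of Ctbp loss with Dppa2 loss 0 members were called higher (3.23% of all genes) and 1 lower (5%). This was Tbx3, at -1.26 (SE 0.12, edgeR adjusted p 0.000109), from increases of 1.71 in Dppa2-intact cells and 0.45 in Dppa2KO cells. Nr0b1 (-0.34), Esrrb (-0.39) and Nanog (-0.38) had edgeR adjusted p-values of 0.0838, 0.097 and 0.0614, and 5 members had an unadjusted p under 0.05. DESeq2 called 2 members, Nanog besides Tbx3, and 0 higher.

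**Figure D2:**
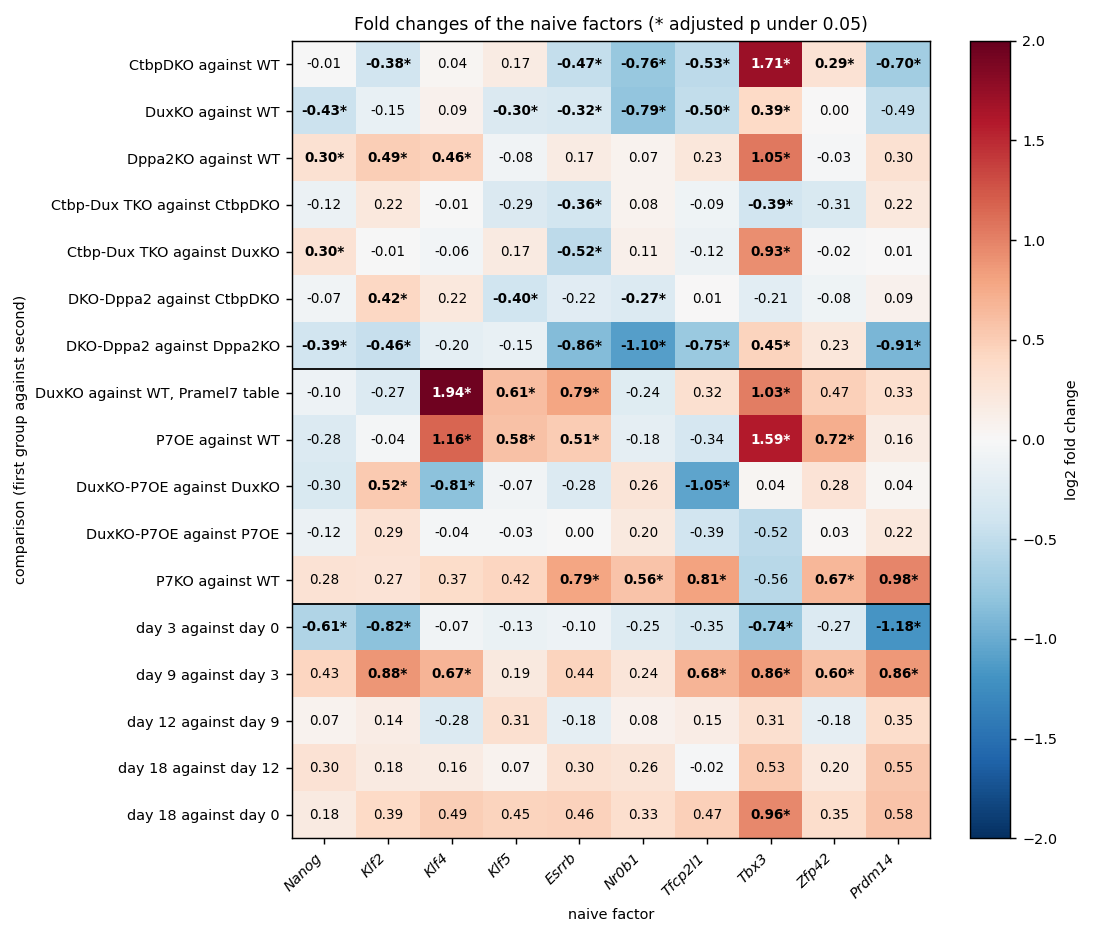
Log2 fold changes of the naive factors (columns) in the 17 pairwise comparisons (lines of the map, first group against second); colour gives the value on a scale from -2 to 2, and a star marks an adjusted p under 0.05 by edgeR. Lines separate the genotype table, the Pramel7 table and the time course. Tbx3 carries a star in 11 of the 17 comparisons, 9 of them higher, and Zfp42 has 4 stars, all higher. Each of these Zfp42 calls was lost under some of the alternative fits.

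In the Pramel7 table DuxKO was higher than WT in Klf4, Klf5, Esrrb and Tbx3. Against all 4 WT libraries, 4 members were called higher (7.76% of all genes) and 0 lower (8.91%), the lower count being 0 also by DESeq2, with a median of 0.40 beside -0.01 over all genes. Klf4, a Krüppel-like factor downstream of LIF, was 110 and 130 CPM in DuxKO, against a lowest WT value of 28.9 and a highest of 34.8 CPM. Its fold change of 1.94 (SE 0.12, edgeR adjusted p 7.52e-07) was the highest of any member in any comparison here. It was 1.98 against WT replicates 3 and 4 and 1.84 against replicates 5 and 6.

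Tbx3 was 80.5 and 85 CPM in DuxKO against 31.5, 31.1, 49.4 and 50.1 CPM in WT (1.03, SE 0.19, edgeR adjusted p 0.00248), or 1.36 and 0.71 against the first and the second WT pair. Esrrb was 406 and 453 CPM against 221, 212, 292 and 269 CPM (0.79, SE 0.14, edgeR adjusted p 0.00203), or 0.95 and 0.60 against each pair. Klf5 was 145 and 157 CPM against 80.9, 88.2, 104 and 122 CPM (0.61, SE 0.15, edgeR adjusted p 0.0143), or 0.80 and 0.40. All 4 genes were above every WT library and were called against each pair. Klf5 was not called without DuxKO replicate 3 or 4 or when the 2 lines were fitted alone (adjusted p up to 0.145).

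Other members depended on the WT pair. Zfp42 was 274 and 293 CPM in DuxKO against 163, 163, 254 and 237 CPM (0.47, SE 0.18, edgeR adjusted p 0.0942), and was called against replicates 3 and 4 (0.75, edgeR adjusted p 0.000343) but not replicates 5 and 6 (0.19, edgeR adjusted p 0.328). Tfcp2l1 was 202 and 229 CPM against 140, 145, 214 and 194 CPM, and was likewise called against replicates 3 and 4 alone (0.56, edgeR adjusted p 0.00178). Klf2 (122 and 138 CPM) and Nr0b1 (142 and 156 CPM) were called lower against replicates 5 and 6 alone, at -0.44 each. Nanog (129 and 141 CPM) and Prdm14 (9.23 and 9.04 CPM) overlapped the WT libraries.

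The DuxKO lines of the genotype table and of the Pramel7 table thus gave different values for the same label, each against its own WT. Klf4 was at 0.09 in the first and 1.94 in the second, Esrrb at -0.32 and 0.79, Klf5 at -0.30 and 0.61 and Tbx3 at 0.39 and 1.03. Nr0b1, Tfcp2l1 and Nanog were called lower in the first, at -0.79, -0.50 and -0.43. They were not called in the second against all its WT libraries, where Nanog was at -0.10. Against WT replicates 3 and 4 and then replicates 5 and 6, Nr0b1 was at -0.08 and -0.44. Tfcp2l1 was at 0.56 and 0.06 in the same order. The tables were normalized separately, and the difference between them was not tested. The WT libraries differed as well: Esrrb was 575 and 620 CPM in the genotype table and between 212 and 292 CPM in the Pramel7 table, each scaled within its own table. Formative genes had 0 of 10 called higher and 8 lower in the second DuxKO comparison, with Dnmt3b at -2.78, Pou3f1 at -2.34 and Pim2 at -2.04. Their summed level was 421 and 406 CPM in DuxKO against 980, 977, 772 and 768 CPM in WT, and their part in the members' values was not tested.

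Several members were higher in P7OE than in WT. In P7OE against WT, 5 were called higher (11% of all genes) and 0 lower (8.9%), the lower count being 0 also by DESeq2, with a median of 0.33 beside -0.01 over all genes. Tbx3 was 121 and 123 CPM against 31.5, 31.1, 49.4 and 50.1 CPM in WT (1.59, SE 0.19, edgeR adjusted p 1e-04). It was 1.92 against WT replicates 3 and 4 and 1.27 against replicates 5 and 6. Klf4 was 71.5 and 68.4 CPM against at most 34.8 CPM (1.16, SE 0.12, edgeR adjusted p 3.36e-05), or 1.20 and 1.06. Both genes stood above every WT library and kept their call under all 13 alternatives run.

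Zfp42 was 326 and 347 CPM in P7OE against 163, 163, 254 and 237 CPM (0.72, SE 0.18, edgeR adjusted p 0.0133), or 1.00 and 0.44 against the WT pairs. Klf5 was 144 and 151 CPM against 80.9, 88.2, 104 and 122 CPM (0.58, SE 0.15, edgeR adjusted p 0.0165), or 0.77 and 0.37. Esrrb was 360 and 347 CPM against 221, 212, 292 and 269 CPM (0.51, SE 0.14, edgeR adjusted p 0.0222), or 0.67 and 0.32. The P7OE libraries were above every WT library in the 3 genes. All 3 calls were lost when the 2 lines were fitted alone and without P7OE replicate 1 or 2, leaving 2 members. Against replicates 5 and 6 Klf5 and Esrrb were not called (edgeR adjusted p 0.0508 and 0.0787), and without WT replicate 3 Esrrb was not either. The highest adjusted p-values of Zfp42, Klf5 and Esrrb were 0.0995, 0.117 and 0.153.

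The other 5 members did not pass the test in P7OE. Tfcp2l1 was 136 and 137 CPM, under every WT library (140, 145, 214 and 194 CPM), with a fold change of -0.34 (SE 0.17, edgeR adjusted p 0.185), and was called lower against replicates 5 and 6 (-0.60, edgeR adjusted p 0.0045). Nanog was 135 and 104 CPM against a WT range of 130 to 162 CPM (-0.28), and Nr0b1 162 and 149 CPM against 151 to 205 CPM (-0.18). Klf2 was 153 CPM in both libraries (-0.04), and Prdm14 was 9.39 and 6.69 CPM (0.16). Nanog and Nr0b1 were called lower against replicates 5 and 6 alone, at -0.42 and -0.38.

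**Figure D3:**
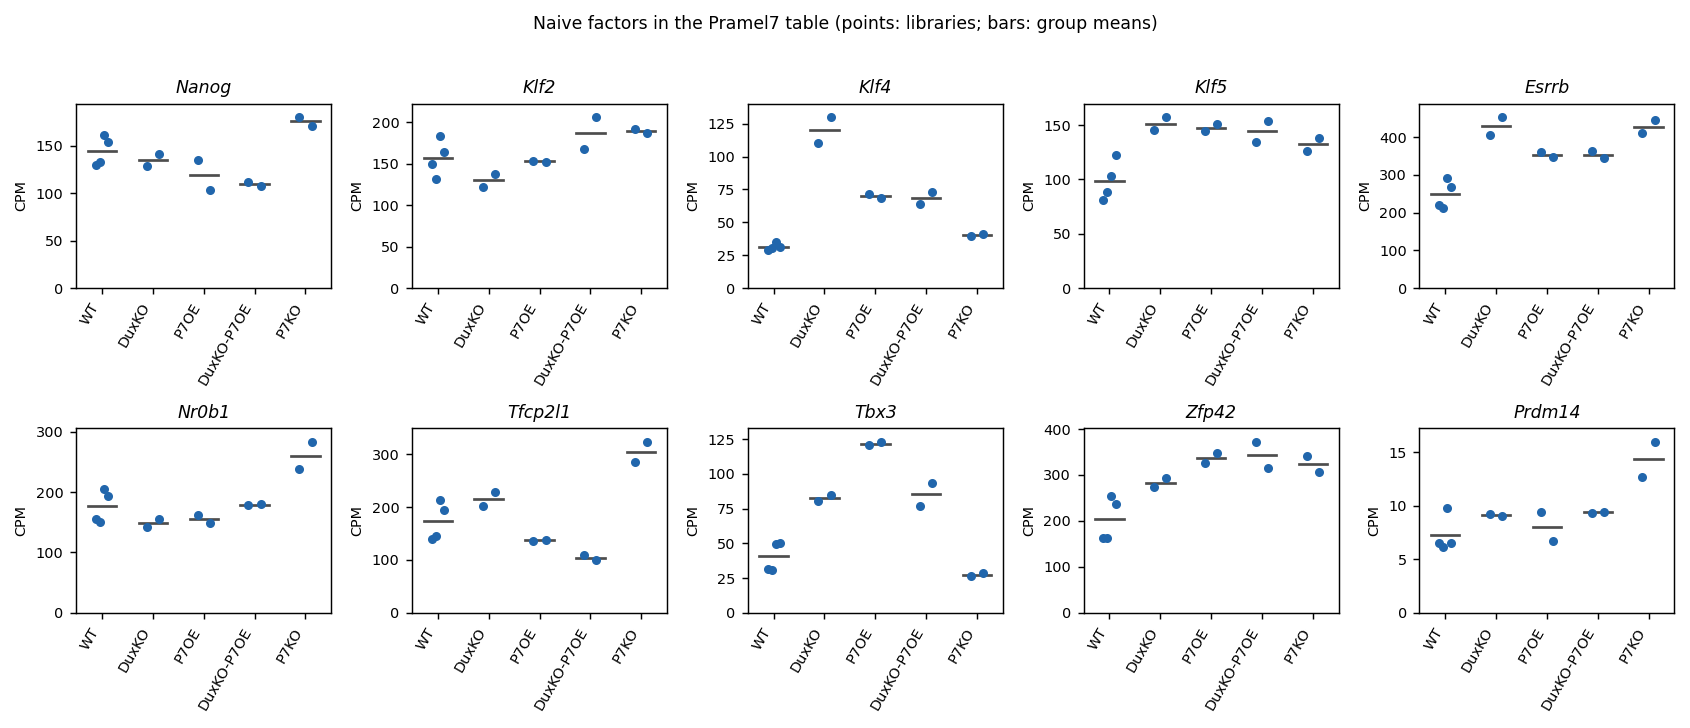
Level of each naive factor (vertical axis, CPM from 0) in the 5 lines of the Pramel7 table (horizontal axis); points are libraries, from left to right in order of replicate number (4 of WT and 2 of each other line), and short horizontal bars their mean. Klf4 is at 110 and 130 CPM in DuxKO, Tbx3 at 121 and 123 CPM in P7OE and at 26.5 and 28.4 CPM in P7KO, and the WT points fall into a lower and a higher pair in Tbx3, Tfcp2l1 and Zfp42.

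Primitive endoderm markers rose with Pramel7 overexpression: 10 of 10 were called higher in P7OE, with Cubn at 5.23, Pdgfra at 3.86 and Dab2 at 3.64, and their summed level was 313 and 373 CPM against 29.4, 32.8, 45.6 and 57.6 CPM in WT. None of the 10 was at 0 counts in P7OE. Formative genes had 1 of 10 called higher and 5 lower, with Fgf5 at -2.03, Pim2 at -1.89 and Pou3f1 at -1.38. Core genes had 0 of 6 called higher and 1 lower, Lin28a at -0.81. The share of endoderm-like cells and its part in the rise of Tbx3, Klf4, Klf5, Esrrb and Zfp42 was not tested.

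Pramel7 overexpression was also compared within DuxKO cells. DuxKO-P7OE against DuxKO had 1 member called higher (11.6% of all genes) and 2 lower (9.83%). Tfcp2l1 was 109 and 100 CPM against 202 and 229 CPM (-1.05, SE 0.20, edgeR adjusted p 0.0026), the lowest level of this gene in the table. Klf4 was 63.6 and 73 CPM against 110 and 130 CPM (-0.81, SE 0.14, edgeR adjusted p 0.00156). Klf2 was 167 and 206 CPM against 122 and 138 CPM (0.52, SE 0.16, edgeR adjusted p 0.0389). The groups did not overlap in the 3 genes. Klf4 was thus lower here and higher in P7OE against WT, and the difference between the effects was not tested. The call of Klf2 was lost without DuxKO replicate 3, DuxKO replicate 4 or DuxKO-P7OE replicate 2 (adjusted p up to 0.268). Tbx3 was 77.1 and 93.1 CPM (0.04), Zfp42 372 and 314 CPM (0.28), Esrrb 362 and 345 CPM (-0.28) and Nanog 112 and 108 CPM (-0.30). Primitive endoderm markers again had 10 of 10 called higher, with sums of 353 and 327 CPM against 66.3 and 62.8 CPM, and their part was not tested.

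DuxKO-P7OE against P7OE compared overexpressing cells with and without Dux, although Pramel7 was also higher in the first (49.3 and 56.7 against 14 and 26.2 CPM). By edgeR 0 members were called higher (0% of all genes) and 0 lower (0.0298%), DESeq2 called 0 and 1 member had an unadjusted p under 0.05. Of all genes tested there, 6 were called. The 5 tested 2-cell genes had fold changes from -9.74 to -6.98 without overlap, yet 0 of them were called. A lack of calls in this comparison thus says little about the members. Tbx3 had the member value farthest from 0, 77.1 and 93.1 CPM against 121 and 123 CPM (-0.52, SE 0.22, edgeR adjusted p 0.424). Tfcp2l1 was at -0.39 (SE 0.20) and Klf2 at 0.29 (SE 0.16). Klf4, Klf5, Esrrb and Zfp42 were within 0.04 of 0.

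In P7KO against WT, 5 members were called higher (3.93% of all genes) and 0 lower (5.55%), while DESeq2 called 1 lower, Tbx3, with a median of 0.49 beside 0.01 over all genes. Prdm14, which represses the de novo methyltransferases, was 12.7 and 16 CPM against 6.55, 6.19, 9.77 and 6.51 CPM in WT (0.98, SE 0.20, edgeR adjusted p 0.00817), or 1.14 and 0.80 against the first and second WT pair. Tfcp2l1 was 285 and 323 CPM against 140, 145, 214 and 194 CPM (0.81, SE 0.16, edgeR adjusted p 0.00715), or 1.07 and 0.57. Esrrb was 412 and 445 CPM against 221, 212, 292 and 269 CPM (0.79, SE 0.14, edgeR adjusted p 0.00338), or 0.96 and 0.60. These 3 were above every WT library and were called against each pair.

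Zfp42 was 342 and 306 CPM in P7KO against 163, 163, 254 and 237 CPM (0.67, SE 0.18, edgeR adjusted p 0.0335), or 0.96 and 0.39 against the WT pairs. Nr0b1 was 238 and 283 CPM against 155, 151, 205 and 194 CPM (0.56, SE 0.14, edgeR adjusted p 0.0257), or 0.74 and 0.37. Both were above all WT libraries, but were not called against replicates 5 and 6, with the 2 lines fitted alone, or without WT replicate 3, WT replicate 4 or P7KO replicate 1 (adjusted p up to 0.287 and 0.26). Without P7KO replicate 2 no member was called: the adjusted p-values of Esrrb, Tfcp2l1 and Prdm14 were then 0.0521, 0.0962 and 0.125, and those of Zfp42 and Nr0b1 missed the threshold too. Without P7KO replicate 1, 3 members were called. Against WT replicates 3 and 4 alone, 9 members were called. Against replicates 5 and 6 alone there were 4, with Esrrb, Tfcp2l1 and Prdm14 higher and Tbx3 lower.

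Tbx3 was the member below WT, at 26.5 and 28.4 CPM against 31.5, 31.1, 49.4 and 50.1 CPM (-0.56, SE 0.20, edgeR adjusted p 0.0995). DESeq2 called it lower (adjusted p 0.0457), as did edgeR without the low-count filter (0.00836) and without WT replicate 3 or 4 (0.0411 and 0.0379). EdgeR did so too against replicates 5 and 6 (-0.87) but not replicates 3 and 4 (-0.22). Nanog (180 and 171 CPM), Klf2 (192 and 187 CPM), Klf4 (39.5 and 41.4 CPM) and Klf5 (126 and 138 CPM) were each above all WT libraries without passing the test, with fold changes of 0.28, 0.27, 0.37 and 0.42. Against replicates 3 and 4 alone each was called higher, at 0.39, 0.40, 0.43 and 0.62 (edgeR adjusted p 0.0274, 0.0231, 0.0114 and 0.000747). Against replicates 5 and 6 none of the 4 was called, at 0.15, 0.12, 0.29 and 0.22. The share of all genes above every WT library was not counted. Formative genes had 0 of 10 called higher and 7 lower, Fgf5 at -3.06, Pou3f1 at -2.53 and Pim2 at -2.26, and summed to 351 and 363 CPM. Trophoblast markers summed to 55.2 and 61.3 CPM against 203, 219, 143 and 107 CPM, with 0 of 9 called higher and 5 lower. Mesoderm markers summed to 11.8 and 12 CPM against 21.4 to 31.9 CPM. The part of these in the members' values was not tested.

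The time course followed CtbpDKO cells labelled Dox. It held no parallel series without Dox or with Ctbp intact, so Ctbp2 level, Dox and days in culture cannot be told apart. Ctbp2 was 58.9 and 59.3 CPM on day 0, 544 and 573 CPM on day 3, 310 and 296 CPM on day 9, and between 44.7 and 54.7 CPM on days 12 and 18. On day 3, when Ctbp2 was highest, every member had a fold change below 0 against day 0, with 0 called higher (2.41% of all genes) and 4 lower (2.59%) and a median of -0.31 beside 0.00 over all genes. The higher count was 0 also by DESeq2, and 7 members had an unadjusted p under 0.05.

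Prdm14 fell from 8.21 and 8.76 CPM to 3.81 and 3.67 CPM, by 1.18 on the log2 scale (SE 0.19, edgeR adjusted p 0.0026). Klf2 went from 81.4 and 95.5 CPM to 50.4 and 50.1 CPM (-0.82, SE 0.11, edgeR adjusted p 0.00109). Tbx3 went from 160 and 196 CPM to 103 and 110 CPM (-0.74, SE 0.13, edgeR adjusted p 0.00459). The day 3 libraries were under both day 0 libraries in each. Nanog went from 214 and 227 CPM to 135 and 154 CPM (-0.61, SE 0.12, edgeR adjusted p 0.00893). The call of Nanog was lost without day 0 replicate 2 or day 3 replicate 1, and that of Tbx3 without day 3 replicate 1, which left 2 members (adjusted p up to 0.121 and 0.0599).

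The other 6 members did not pass the test on day 3. Tfcp2l1 was 142 and 125 CPM against 160 and 180 CPM (-0.35), Zfp42 319 and 321 against 380 and 390 CPM (-0.27) and Nr0b1 71.7 and 63.4 against 78.4 and 82.3 CPM (-0.25). Klf5 was 137 and 136 against 148 and 152 CPM (-0.13). The days did not overlap in these 4 genes, and the share of all genes doing so was not counted. Esrrb (331 and 323 against 311 and 391 CPM) and Klf4 (35.3 and 42.1 against 40.5 and 40.4 CPM) overlapped. Of the further naive genes 0 of 10 were called higher and 6 lower, with Dppa3 at -1.30, Tcl1 at -0.77 and Tdh at -0.72. Of the formative genes 3 of 10 were called higher and 1 lower, with Pim2 at 2.32, Dnmt3a at 1.81 and Pou3f1 at 1.45. Trophoblast markers fell to a sum of 93 and 89.9 CPM from 177 and 195 CPM, with 0 of 9 called higher and 4 lower, and their part was not tested.

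**Figure D4:**
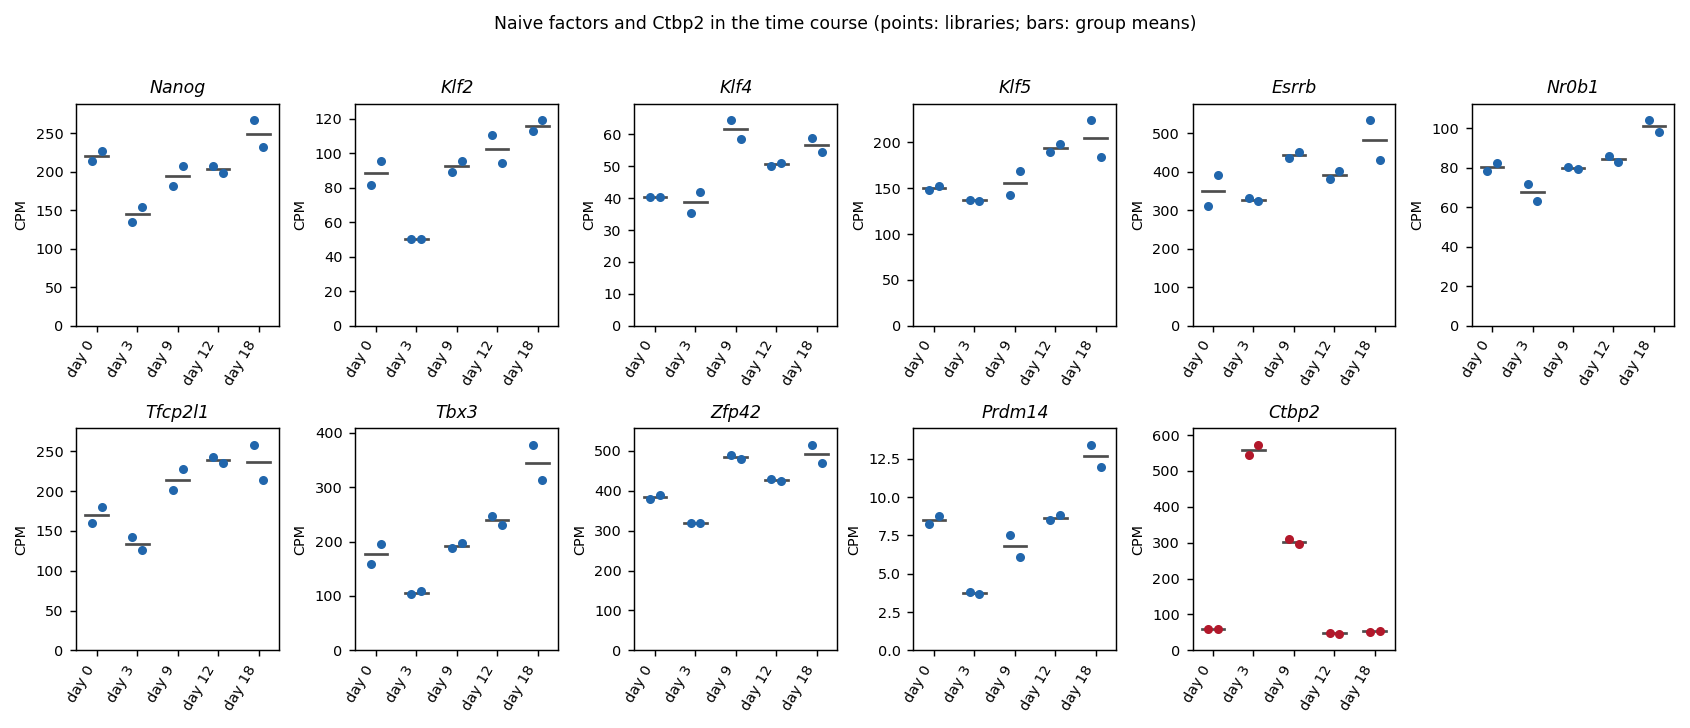
Level of each naive factor and of Ctbp2 (vertical axis, CPM from 0) by day of the time course (horizontal axis, days in order but not to scale); points are the 2 libraries of a day and short horizontal bars their mean. Prdm14 is lowest on day 3, at 3.81 and 3.67 CPM, when Ctbp2 is highest, at 544 and 573 CPM, and Tbx3 is highest on day 18, at 378 and 312 CPM.

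From day 3 to day 9 every member had a fold change above 0, with 6 called higher (0.524% of all genes) and 0 lower (0.592%) and a median of 0.64 beside 0.00 over all genes. The lower count was 0 also by DESeq2, which called 8 members. Klf2 was 89.2 and 95.7 CPM on day 9 (0.88, SE 0.11, edgeR adjusted p 0.00328), Tbx3 188 and 197 CPM (0.86, SE 0.13, edgeR adjusted p 0.00608) and Klf4 64.5 and 58.7 CPM (0.67, SE 0.11, edgeR adjusted p 0.0096). Klf2 and Tbx3 were close to their day 0 levels, while Klf4 was above its own. Tfcp2l1 was 202 and 227 CPM (0.68), Zfp42 489 and 480 CPM (0.60) and Prdm14 7.5 and 6.07 CPM (0.86), with edgeR adjusted p-values of 0.0189, 0.0124 and 0.0428.

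Of these day 9 calls, that of Klf2 was kept without each library in turn. Those of Tfcp2l1, Zfp42 and Prdm14 were lost without any 1 of the 4 libraries (adjusted p up to 0.184, 0.104 and 0.289), and that of Prdm14 also with the 2 days fitted alone and under the replicate block. Over all alternatives their fold changes stayed between 0.59 and 0.78 (Tfcp2l1), 0.59 and 0.62 (Zfp42) and 0.70 and 1.00 (Prdm14). Tbx3 was not called without day 3 replicate 1 or 2, and Klf4 without day 3 replicate 1 or day 9 replicate 1 (adjusted p up to 0.0715 and 0.13). Without day 3 replicate 1 Klf2 was the 1 member called, without day 3 replicate 2 or day 9 replicate 1 there were 2, and without day 9 replicate 2 there were 3. Nanog (181 and 207 CPM, 0.43), Esrrb (436 and 452 CPM, 0.44), Nr0b1 (80.5 and 79.5 CPM, 0.24) and Klf5 (143 and 169 CPM, 0.19) lay above day 3 in both libraries without passing the test. How many of all genes lay above day 3 in both libraries was not counted. Ctbp2 was still 310 and 296 CPM on day 9. Of the further naive genes 1 of 10 was called higher (Tdh, 0.68) and 0 lower, and the trophoblast sum was 144 and 152 CPM.

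Day 12 against day 9 had 0 members called higher (1.87% of all genes) and 0 lower (1.97%) by edgeR, 0 by DESeq2 and 3 at an unadjusted p under 0.05, with fold changes between -0.28 (Klf4, 50.2 and 51.2 CPM) and 0.35 (Prdm14, 8.5 and 8.82 CPM). Ctbp2 had by then returned to 49.4 and 44.7 CPM. Tbx3 was 246 and 231 CPM, above both day 9 libraries (0.31, SE 0.13, edgeR adjusted p 0.226). Of the formative genes 1 of 10 was called higher and 1 lower in the same step, the de novo methyltransferases Dnmt3b (0.88) and Dnmt3a (-2.06), with a list median of 0.03.

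Day 18 against day 12 had 0 members called higher (0.64% of all genes) and 0 lower (0.18%) by edgeR, while 5 had an unadjusted p under 0.05. Tbx3 was 378 and 312 CPM (0.53, SE 0.13, edgeR adjusted p 0.0831). DESeq2 and the fit without the low-count filter called Tbx3 (adjusted p 0.0037 and 0.00193), as did edgeR without day 18 replicate 2 (0.0436). Prdm14 was 13.4 and 11.9 CPM (0.55), Nanog 267 and 232 CPM (0.30), Esrrb 534 and 430 CPM (0.30), Nr0b1 104 and 98.2 CPM (0.26) and Zfp42 515 and 468 CPM (0.20). Each of these lay above both day 12 libraries, and the share of all genes doing so was not counted.

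Set against day 0, day 18 had all 10 members above 0, with a median of 0.45 beside -0.01 over all genes. By edgeR 1 was called higher (0.359% of all genes) and 0 lower (0.155%), and 9 had an unadjusted p under 0.05. This was Tbx3, 378 and 312 CPM against 160 and 196 CPM (0.96, SE 0.13, edgeR adjusted p 0.00301), which lost its call without day 0 replicate 1 (adjusted p 0.057). DESeq2 called 6 members higher and 0 lower, adding Klf4, Klf5, Esrrb, Tfcp2l1 and Zfp42, and edgeR without the low-count filter called 5, the same without Zfp42. Primitive endoderm markers summed to 255 and 230 CPM on day 18 against 53.8 and 67.1 CPM on day 0, with 5 of 10 called higher, Cubn at 3.05, Dab2 at 2.45 and Lama1 at 1.97. Their part in the rise of Tbx3 was not tested.

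Over the 17 pairwise comparisons the members differed in how often and which way they were called. Tbx3 was called higher in 9 and lower in 2, Esrrb higher in 3 and lower in 5, and Klf2 higher in 4 and lower in 3. Nr0b1 was called higher in 1 and lower in 4, Tfcp2l1 higher in 2 and lower in 4, and Nanog and Prdm14 each higher in 2 and lower in 3. Klf4 was called higher in 4 and lower in 1, Klf5 in 2 each way, and Zfp42 higher in 4 and lower in 0. Several comparisons share control libraries, so these counts are not independent. Every call of Klf5 and Zfp42 was lost under at least 1 alternative fit, as were some calls of other members.

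The order of the lines differed between members. The ratio of the highest to the lowest group mean of Tbx3 was 3.27 in the genotype table (CtbpDKO over WT), 4.43 in the Pramel7 table (P7OE over P7KO) and 3.25 in the time course (day 18 over day 3). For Zfp42 these ratios were 1.25, 1.68 and 1.54. In the genotype table Dppa2KO had the highest mean for Nanog, Klf2, Klf4, Esrrb, Nr0b1, Tfcp2l1 and Prdm14, and CtbpDKO for Klf5, Tbx3 and Zfp42. Some neighbours in the order overlapped, such as Tfcp2l1 in Ctbp-Dux TKO, CtbpDKO, DKO-Dppa2 and DuxKO, all between 157 and 188 CPM. In the time course day 3 had the lowest mean of all 10 members, and day 18 the highest of all but Klf4 (day 9) and Tfcp2l1 (day 12).

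As a description, levels were compared across the 34 libraries as log2 CPM centred on each table's mean, with 11450 genes of mean log2 CPM of at least 2 tested in all tables. Libraries share a table and a line, so r carries no test. Among the members Klf2 and Prdm14 were most alike (r = 0.80), followed by Nr0b1 with Prdm14 (0.77), Nanog with Tfcp2l1 (0.77) and Klf5 with Zfp42 (0.76), while Nr0b1 and Tbx3 ran apart (-0.29). Over all genes the most alike to Zfp42 was its pseudogene Zfp42-ps1 (0.91). Reads may have been split between the copies, which r cannot show and which was not checked, so both counts carry that uncertainty. For Tbx3 the most alike was the antisense neighbour Tbx3os1 (0.91). The library kit was stranded, but the strand setting of the counting is not given in the sources used here. Reads of this pair may thus be mixed.

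For Zfp42 the next were Zfp414 (0.88) and Dennd1a (0.84), and for Tbx3 Syngr2 (0.88) and Zfp516 (0.85). Tfcp2l1 was most like Ly75 (0.89), Sod2 (0.86) and Tgif1 (0.86), and Nr0b1 most like Gfpt2, Ccnd2 and Nmnat2 (each 0.88). For Esrrb these were Calcoco1 (0.87), Gli2 (0.85) and Hes1 (0.85), and for Klf5 Tet2 (0.83), Islr2 (0.83) and Hnrnpul1 (0.77). Prdm14 was most like Vangl1 (0.82), Mras (0.82) and Klf2 (0.80), and Klf2 most like Prdm14 (0.80), Sirt6 (0.79) and Bdh1 (0.75). For Nanog the values were 0.81 (Rnf13), 0.78 (Chrna9) and 0.78 (Zbtb44), and for Klf4 0.80 (Acvr1b), 0.79 (Ptger1) and 0.79 (G6pc3).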

How the data were processed

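RNA of 34 libraries was sequenced by the authors. Counts per gene were deposited by the authors as 3 tables of raw counts, and per the submitters' processing notes the tools were Trim Galore, HISAT2 and featureCounts with build mm10. Versions, annotation and strand setting are not given in the sources used here. A second copy of the genotype table with identical values was not used, 0 columns were left unmatched, and 6 bisulfite libraries were not analysed here. Library totals ranged from 10123058 to 36025046 counts.

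Each table was fitted once with edgeR 4.0.16 in R 4.3.3 (filterByExpr, TMM, quasi-likelihood F test, all groups of the table in 1 fit, no replicate block), which tested 21193 genes (genotype), 20161 (Pramel7) and 20612 (time course). Fold changes carry a prior count of 0.125, adjustment was by Benjamini-Hochberg over all genes tested, and a call means an adjusted p under 0.05. The scripts were tested on simulated data. Named are the 10 members throughout, the targeted genes, up to 3 called genes of each further list with the largest absolute fold change, and the 3 genes most alike to each member; Krt18, Elf5 and Amn were named after their values were seen. The lists were core pluripotency, further naive, LIF and Stat3, Wnt and Tcf7l1, FGF and ERK, formative and primed, 2-cell, primitive endoderm, trophoblast, mesoderm and neural. The members and lists were chosen with earlier results of these data known. Alternatives were DESeq2 1.42.0, DESeq2-style size factors, no low-count filter, structural RNA genes removed, a fit of only the groups compared, a replicate block, either WT pair alone and leaving out each library.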

Additional observations from a re-analysis of the deposited data

Results flagged for a closer look

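Tbx3 had effects of Ctbp loss that differed with the genotype: the interaction was -0.78 on the log2 scale with Dux loss and -1.26 with Dppa2 loss, by the edgeR test of the difference itself. Nr0b1 had an interaction of 0.87 and Klf2 of 0.37 with Dux loss. Only that of Klf2 was lost under an alternative among these 4. The mean level of Nr0b1 was already low in DuxKO, at 105 CPM beside 182 CPM in WT and 107 CPM in CtbpDKO.

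Klf5 and Esrrb moved in opposite directions in the DuxKO lines of the 2 tables, each against its own WT, with every DuxKO library on the same side of its WT libraries. Klf5 was at -0.30 in the genotype table and 0.61 in the Pramel7 table, and Esrrb at -0.32 and 0.79. In the genotype table the edgeR adjusted p-values of Klf5 and Esrrb were 0.0343 and 0.0356. Those 2 calls were lost under 6 and 5 of 10 alternatives. In the Pramel7 table the call of Klf5 was lost under 3 of 14 alternatives and that of Esrrb under 0. The difference was not tested, since the tables were normalized separately.

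Prdm14 in the 4 WT libraries of the Pramel7 table had 1 library, replicate 5 at 9.77 CPM, far from the others, with a gap to the next that was 0.899 of the whole range, above Dixon's 95% critical value for 4 samples. The 10 members were checked in that group, where chance gives about 1 in 20 for each check. A single flag among 10 checks is thus not unusual. These WT libraries also stood apart in pairs, as given above.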

How the results depend on the processing

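Of 190 fold changes of members, 64 were called by edgeR, and none of these changed sign under any alternative. A further 26 were called only under an alternative, and 100 never were, of which 33 changed sign, all at a size of at most 0.22. DESeq2 and DESeq2-style size factors lost 0 of the 64 calls, the fit without the low-count filter 3, removal of structural RNA genes 2 and the fit of only the groups compared 11. The number of members called moved by over 1.5 times as follows. With DESeq2 it was 5 for the Dux interaction (3 before), 2 for the Dppa2 interaction (1 before), 1 for day 18 against day 12 (0 before) and 6 for day 18 against day 0 (1 before). Without the low-count filter the last 2 were 1 and 5. With only the groups compared it was 0 for Ctbp-Dux TKO against CtbpDKO (2 before), 5 for the Dux interaction, 2 for P7OE (5 before) and 3 for P7KO (5 before), and with WT replicates 3 and 4 alone 9 for P7KO. The causes were not tested.

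The labels give libraries of different lines the same replicate numbers only as numbers, and in the genotype table the deviations of same-numbered libraries correlated between -0.413 and 0.181. The replicate block lost 7 calls of 51 and gained 2 over 160 values, and left 1 member called in Ctbp-Dux TKO against CtbpDKO. In the Pramel7 table it could be fitted only for DuxKO against WT and DuxKO-P7OE against P7OE.

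Leaving out each library in turn leaves a group of 2 with a single library, which is then assumed to vary like the other groups. Members called then ranged from 5 to 6 for CtbpDKO, 3 to 4 for DuxKO, 2 to 3 for Dppa2KO, 0 to 2 for Ctbp-Dux TKO against CtbpDKO, 2 to 3 against DuxKO, 1 to 2 for DKO-Dppa2 against CtbpDKO, 7 to 8 against Dppa2KO and 2 to 3 for the Dux interaction. In the Pramel7 table the ranges were 3 to 5 for DuxKO, 2 to 5 for P7OE, 2 to 3 for DuxKO-P7OE against DuxKO and 0 to 6 for P7KO. In the time course they were 2 to 4 for day 3, 1 to 3 for day 9, 0 to 1 for day 18 against day 12 and 0 to 1 for day 18 against day 0. Prdm14, with a mean of 3.74 CPM at its lowest, has the fewest counts and the widest errors of the members.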
